A study of Mus musculus with 6 samples.

Results

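The genes described here encode the subunits of the mitochondrial respiratory chain and of ATP synthase that are made from nuclear DNA. They were chosen by symbol from the table of estimated read counts per gene (Nduf, Sdh, Uqcr, Cyc1, Cox4 to Cox8 and Atp5 names), leaving out the muscle isoform genes Cox6a2, Cox7a1 and Cox8b and asking for at least 10 counts in at least 3 of 6 libraries. Of 18422 genes in the table, 77 met this rule, and all 77 were among the 14866 genes tested. They comprised 36 genes of complex I, 4 of complex II, 9 of complex III, 11 of complex IV (with Ndufa4, now counted to that complex, and Cox6b2, an isoform best known from testis) and 17 of ATP synthase. The symbol rule does not take in Cox4i1, the main subunit 4 gene of complex IV, whose values are given with the isoform genes. The subunits encoded by mitochondrial DNA were not analysed here.

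Oxidative phosphorylation couples electron flow to ATP synthesis in the inner mitochondrial membrane. Complex I (NADH dehydrogenase) and complex II (succinate dehydrogenase, also an enzyme of the tricarboxylic acid cycle) pass electrons to ubiquinone, complex III passes them on to cytochrome c and complex IV passes them to oxygen. Complexes I, III and IV pump protons, and ATP synthase uses the return of the protons to turn its rotor and make ATP. In skin, keratinocytes, fibroblasts and hair follicles all carry mitochondria, and striated muscle fibres of the ear carry many per cell, whereas endothelial cells are known to draw much of their ATP from glycolysis.

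RNA came from snap-frozen ear skin of mice at postnatal day 21, with 3 libraries from mice that had lost Vegfr2 (the gene Kdr, encoding the main VEGF receptor of blood vessels) in endothelial cells, labelled ecko, and 3 from controls. Both groups had received tamoxifen, and the series describes its controls as littermates. Tamoxifen was given from postnatal day 1 or from postnatal day 10 in the series, and the sources used here do not say which schedule these mice had, nor do they give the Cre line, the floxed allele or the number of mice per library. P-values therefore measure the spread between these libraries, which were not stated to be separate animals. The whole ear skin was sequenced, so a lower value can come from fewer cells of a type or from less RNA per cell, which cannot be told apart.

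Library totals ran from 17255419 to 18054700 counts. Kdr, the check of the labels, had 475, 511 and 595 counts in controls and 58, 37 and 42 in ecko, a log2 fold change of -3.54 ± 0.17 (SE) with an adjusted p of 2.7e-05 in edgeR's quasi-likelihood test with Benjamini-Hochberg adjustment. Keratinocyte markers were high in all 6 libraries, with a summed level of 25453 to 27190 CPM (counts scaled to the TMM-adjusted library size) in controls and 28369 to 30947 CPM in ecko. Summed endothelial markers were 352 to 371 CPM in controls and 227 to 233 CPM in ecko. Of the 9, 7 were called lower by edgeR, against 1.08% of all genes tested. Y-linked genes summed to 3712 to 4390 counts in 4 libraries and to 24 and 36 counts in replicate 3 of each group, so each group held 2 male libraries and 1 female library. The first control library stood apart from the other 5 in skeletal muscle, macrophage and respiratory chain genes, with values given after those of the complexes.

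No respiratory chain gene passed the test. At an adjusted p under 0.05, 0 of 77 were higher and 0 of 77 lower in ecko, where 102 of all genes tested (0.686%) were higher and 160 (1.08%) lower. DESeq2 and limma-voom also called 0 of 77 in either direction. At an unadjusted p under 0.05, 1 of 77 passed, Ndufb2, against 2284 genes (15.4%) of all genes tested. The fitted log2 fold changes ran from -0.32 to 0.12 with a median of -0.054, and 69 were below 0 and 8 above. Over all genes tested the median was -0.0018. The quartiles of the members were -0.11 and -0.023, with an SD of 0.065 across the members against 0.26 across all genes tested.

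The intervals of most of these genes were narrow. The median SE of a member was 0.085 on the log2 scale, near the 0.094 of all genes tested. The 95% interval held 0 for 76 of 77. The interval reached a log2 change of 0.5 in either direction for 3 members, Ndufb2, Ndufa2 and Cox6b2. Leaving out Cox6b2, whose counts started at 19 per library, the intervals of the other 76 lay between -0.52 and 0.43, with counts from 259 to 19680 per library. The 3 genes with an interval beyond 0.5 were picked out after their values were seen.

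**Figure D1:**
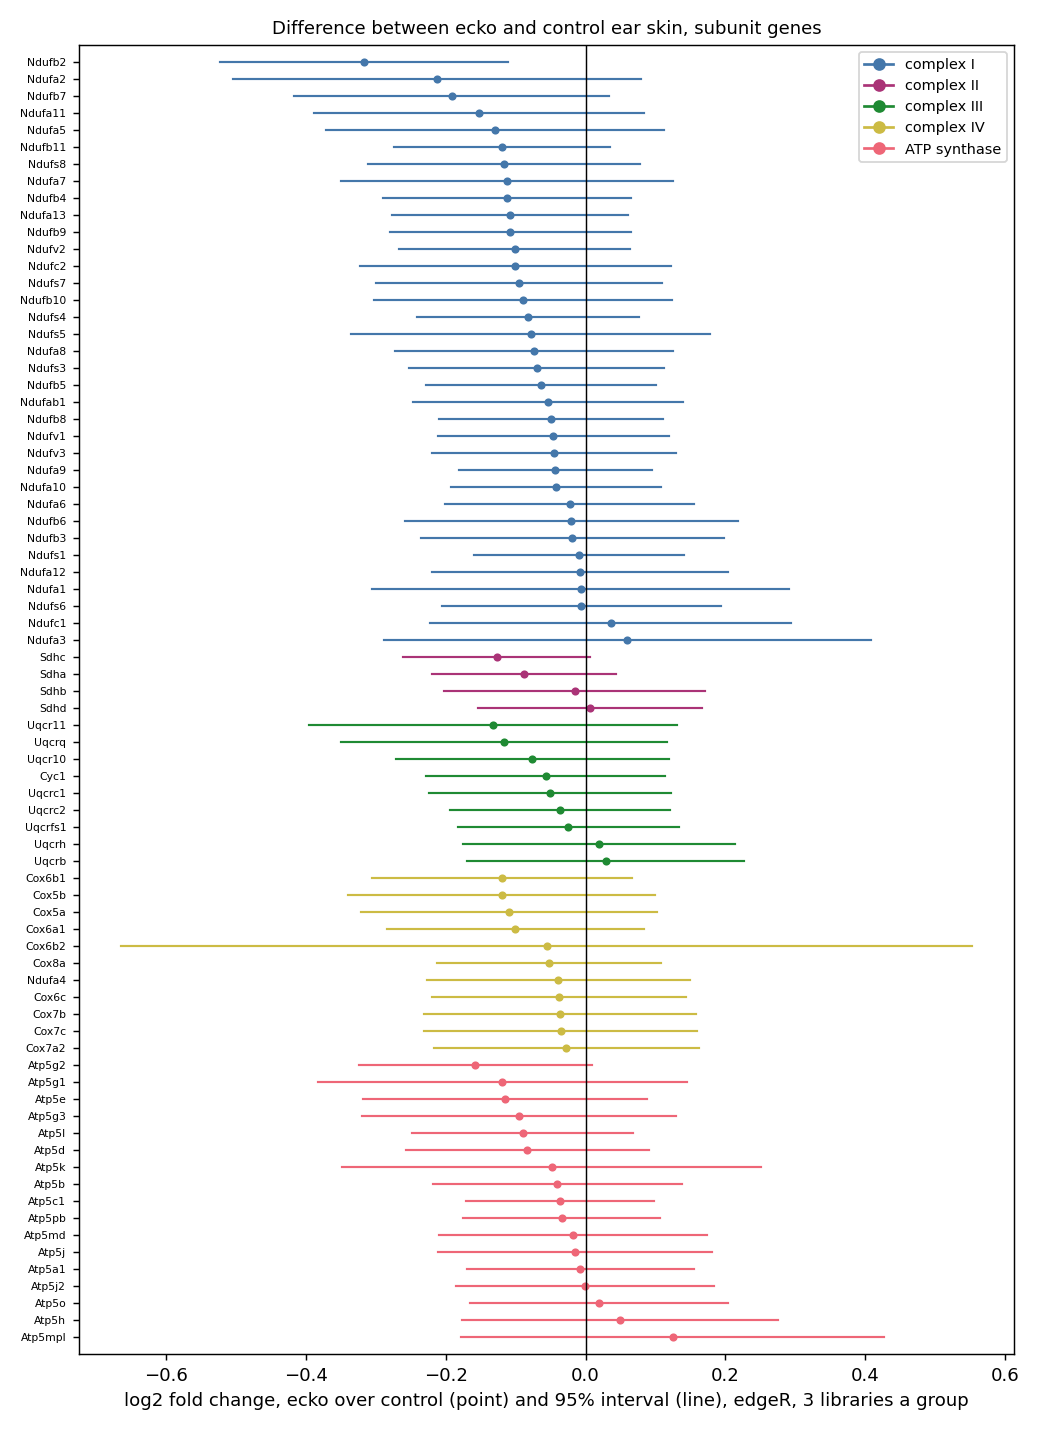
Fitted log2 fold change (x axis, ecko over control; point) and its 95% interval (line) of the subunit genes, grouped by complex and ordered by value, from edgeR with 3 libraries a group; 1 member is not plotted. Most points lie left of 0, and among the genes plotted the interval of Ndufb2, at the top, is the one that does not cross it.

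Complex I takes electrons from NADH through a flavin and a chain of iron-sulfur clusters held by its core subunits. All 7 nuclear core genes had values below 0, none was called, and their median log2 fold change was -0.096. Ndufs1, the large iron-sulfur subunit, had 119.9, 113 and 101 CPM in controls and 110.1, 111 and 111 CPM in ecko, and its log2 fold change was -0.0097 ± 0.067 (SE), with a 95% interval from -0.16 to 0.14. Both groups overlapped for Ndufs1, and the first control library was highest. Ndufv1, which binds NADH and flavin, had 135, 121 and 118 CPM in controls and 123, 128 and 111 CPM in ecko, a log2 fold change of -0.046 ± 0.074 (SE). For Ndufv1 too the first control library was the highest and the groups overlapped.

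The 29 accessory genes of complex I, which surround and stabilise the core, had a median of -0.074, with 27 values below 0 and 2 above. Ndufb2, an accessory subunit of the membrane arm (chr6:39592565-39599843, 4 exons, GRCm38.p6, gene ID 68198), had the lowest value of all 77 members. Controls gave 589, 603 and 513 counts of it, and ecko libraries gave 442, 514 and 431. Its level was 32.5 ± 2.93 CPM in controls and 26.0 ± 2.21 CPM in ecko (SD, n = 3), and after scaling every ecko library was below every control library, the highest ecko at 28.4 and the lowest control at 29.1 CPM. Its log2 fold change was -0.32 ± 0.092 (SE) with a 95% interval from -0.52 to -0.11, and its adjusted p of 0.144 in edgeR did not pass.

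The next lowest accessory genes overlapped between groups. Ndufa2 had 38.2, 36.4 and 32.6 CPM in controls and 29.95, 37.5 and 24.99 CPM in ecko (log2 fold change -0.21 with an SE of 0.13, adjusted p 0.49 in edgeR), and the second ecko library was above the second and the third controls. Ndufb7 had 44.8, 37.5 and 41.9 CPM in controls and 38.0, 39.6 and 31.1 CPM in ecko (log2 fold change -0.19 with an SE of 0.10), and the third ecko library was the lowest. Ndufa11, a membrane-arm subunit, had 48.7, 36.3 and 39.3 CPM in controls and 37.3, 39.6 and 34.9 CPM in ecko (log2 fold change -0.15 with an SE of 0.11), and the first control library was well above the other 5. At the other end, Ndufa3 had 22.5, 22.0 and 14.7 CPM in controls and 20.7, 22.5 and 18.3 CPM in ecko (log2 fold change 0.060 with an SE of 0.16) and Ndufc1 had 22.9, 21.9 and 17.6 CPM in controls and 19.99, 23.4 and 20.5 CPM in ecko (log2 fold change 0.036 with an SE of 0.12). For both, the third control library was the lowest of the 6.

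Ndufb2 was among 3 members whose ecko libraries all lay below all controls; the other two, picked out after their values were seen, were Sdhc and Ndufb11. Over all genes tested 10.8% lay that way, and 3 of 77 is a smaller share. No member had all ecko libraries above all controls, where 10.2% of all genes tested did. Ndufb11, an X-linked accessory gene of complex I, had 82.6, 72.7 and 71.4 CPM in controls and 71.4, 67.9 and 69.3 CPM in ecko, and its lowest control and highest ecko libraries were equal to 3 digits. Sdhc, a membrane anchor of complex II, had 122, 122 and 113 CPM in controls and 112, 112 and 104 CPM in ecko, a log2 fold change of -0.13 ± 0.060 (SE) with an adjusted p of 0.352 in edgeR.

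The 4 genes of complex II had a median of -0.052. Sdha, the flavoprotein that oxidises succinate, had 246, 229.6 and 226 CPM in controls and 217, 227 and 216 CPM in ecko (log2 fold change -0.088 with an SE of 0.059). Its ecko values lay within or below the control range, the second ecko library being above the third control. Sdhb, the iron-sulfur subunit, had 78.9, 70.2 and 67.5 CPM in controls and 75.03, 75.04 and 64.2 CPM in ecko and a log2 fold change of -0.015 ± 0.083 (SE). Its 95% interval ran from -0.20 to 0.17. Complex II was the group in which the first control library was least raised, at 0.11 above the gene means on the log2 scale against 0.16 to 0.18 for the other complexes; this difference was not tested.

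The 9 genes of complex III had a median of -0.050, with 7 values below 0 and 2 above. Uqcrc1, a core protein of the matrix side, had 244, 219.9 and 211 CPM in controls and 225, 228.1 and 198 CPM in ecko (log2 fold change -0.050 with an SE of 0.077). Uqcrfs1, the Rieske iron-sulfur protein, had 151, 135 and 128 CPM in controls and 137, 139.7 and 130.4 CPM in ecko (log2 fold change -0.025 with an SE of 0.071). Cyc1, cytochrome c1, had 126, 113 and 108 CPM in controls and 116, 116 and 102 CPM in ecko (log2 fold change -0.057 with an SE of 0.077). For Uqcrc1, Uqcrfs1 and Cyc1 the first control library was the highest and the third control or the third ecko library the lowest. Uqcrb, a small subunit on the matrix side, had 83.8, 67.2 and 67.5 CPM in controls and 71.7, 77.3 and 73.9 CPM in ecko and, among the 5 highest values of all members, a log2 fold change of 0.029 ± 0.089 (SE).

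The 11 genes of complex IV all had values below 0, from -0.12 to -0.027, with a median of -0.052, and none was called. Cox5a had 112, 101 and 88.1 CPM in controls and 93.7, 101 and 84.1 CPM in ecko (log2 fold change -0.11 with an SE of 0.095), and Cox5b, which binds zinc, had 98.0, 84.3 and 78.1 CPM in controls and 81.8, 86.9 and 70.8 CPM in ecko (log2 fold change -0.12 with an SE of 0.098). Both subunits sit on the matrix side of the enzyme, and in both the third ecko library was the lowest. Ndufa4, once assigned to complex I, had 178, 146 and 164 CPM in controls and 156, 172 and 147 CPM in ecko (log2 fold change -0.039 with an SE of 0.084). Cox6a1, Cox7a2 and Cox8a, the widely expressed isoforms of subunits that also have a muscle form, had log2 fold changes of -0.10, -0.027 and -0.052. Their 95% intervals ran from -0.28 to 0.083, -0.22 to 0.16 and -0.21 to 0.11. Cox6b2, the member with the fewest counts, had 1.501, 1.76 and 1.53 CPM in controls and 1.10, 2.10 and 1.40 CPM in ecko, and its 95% interval ran from -0.66 to 0.55.

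In ATP synthase, 14 of 17 values were below 0 and the median was -0.037. The catalytic head holds Atp5a1 and Atp5b, the alpha and beta subunits. Atp5b (chr10:128083307-128090388, 10 exons) had 1126, 1058 and 997 CPM in controls and 1030.3, 1089 and 974 CPM in ecko, a log2 fold change of -0.040 ± 0.079 (SE). Atp5a1 had 829.8, 773 and 734 CPM in controls and 756, 800.3 and 768 CPM in ecko, a log2 fold change of -0.0074 ± 0.072 (SE), and a 95% interval from -0.17 to 0.15. Counts of Atp5b ran from 17414 to 19680 per library, the highest of the members, and the groups overlapped. The 4 stalk genes, which hold the head still against the rotor, had a median of 0.0022; among them Atp5h had 163, 132 and 119 CPM in controls and 141, 144 and 143 CPM in ecko (log2 fold change 0.050 with an SE of 0.10). Atp5mpl, a small membrane subunit (chr12:111961374-111967009), had the highest log2 fold change of the members, 0.12 ± 0.14 (SE). It had 40.6, 31.4 and 30.8 CPM in controls and 37.0, 43.7 and 31.4 CPM in ecko, so the first control library lay above 2 of the 3 ecko libraries.

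The c ring, the rotor that protons turn, is encoded by 3 genes, Atp5g1, Atp5g2 and Atp5g3, whose mature protein is the same while their targeting peptides differ. Their values had a median of -0.12, the lowest of any subgroup. Atp5g1 (chr11:96072793-96075694) had 127, 108 and 94.7 CPM in controls and 101, 115 and 87.9 CPM in ecko (log2 fold change -0.12 with an SE of 0.12). Atp5g2 (chr15:102662868-102671047) had 131, 113 and 113 CPM in controls and 105, 113 and 101 CPM in ecko (log2 fold change -0.16 with an SE of 0.075), its first control library standing above the other 5. Atp5g3 (chr2:73908447-73912464) had 269, 222 and 212 CPM in controls and 215, 243 and 200.4 CPM in ecko (log2 fold change -0.095 with an SE of 0.10). Since these genes code for the same protein segment, their reads could be confused, and the last 90 coding bases before the stop codon are shown to set out how far they differ. The sequences are from GENCODE M21 transcripts of GRCm38, 5′ to 3′, with capitals at the 24 positions where the 3 genes are not all the same.
Atp5g1: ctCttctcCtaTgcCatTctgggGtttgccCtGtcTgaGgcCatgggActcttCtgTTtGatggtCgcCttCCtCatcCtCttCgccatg
Atp5g2: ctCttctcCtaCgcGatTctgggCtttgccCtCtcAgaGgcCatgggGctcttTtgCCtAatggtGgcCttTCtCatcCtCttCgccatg
Atp5g3: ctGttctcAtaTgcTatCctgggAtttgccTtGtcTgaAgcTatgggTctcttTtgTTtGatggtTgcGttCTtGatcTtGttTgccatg
Over the last 228 coding bases, Atp5g1 and Atp5g2 shared 85.1% of bases, Atp5g1 and Atp5g3 79.8%, and Atp5g2 and Atp5g3 78.5%. The longest run shared by a pair was 21, 11 and 8 bases, respectively. The estimated counts of all 3 genes were whole numbers in every library. Of all members, 70 had whole values throughout; 7 had a fractional value, among them Cox7a2, Ndufb4 and Ndufb11, so their counts were in part divided between genes by estimate.

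Per kilobase of transcript, which allows genes to be compared, the members had a median level of 90.1 CPM per kb in controls against 9.05 for all genes tested with a known length. ATP synthase genes were highest, with a median of 184 CPM per kb, followed by complex IV with 163, complex III with 120, complex I with 66.1 and complex II with 62.3. The highest 5 genes were Atp5b with 553 ± 33.7, Atp5l with 364 ± 27.1, Atp5g3 with 328 ± 42.6, Atp5a1 with 315 ± 19.5 and Ndufa4 with 266 ± 25.9 CPM per kb (SD, n = 3 controls). Atp5b stood above the rest by more than the spread between libraries, while Atp5l and Atp5g3, and Atp5g3 and Atp5a1, differed by less than the SD of Atp5g3. The lowest were Cox6b2 with 2.89 and Ndufab1, the mitochondrial acyl carrier protein, with 15.1 CPM per kb. The rank of Ndufab1 rests on the transcript chosen for it, at 3479 bases the longest of the members. Before division by length its mean in controls was 52.4 CPM.

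The members moved together from library to library, within each group as well as between them. Expressed as the mean over the 77 genes of log2 CPM less each gene's mean over 6 libraries, the level was 0.17, 0.0025 and -0.081 in controls and -0.024, 0.059 and -0.13 in ecko. The first control library was the highest of the 6 for 69 of the 77 genes, and the third ecko library was the lowest for 46 and the third control library for 20. In the first control library 76 genes were above their own mean, and in the third ecko library 3 were. As a share of all counts, the members made up 0.961, 0.862 and 0.822% in controls and 0.846, 0.892 and 0.799% in ecko. The SD across members of these levels was 0.063 to 0.084 within a library, smaller than the distance between the highest and lowest control libraries.

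**Figure D2:**
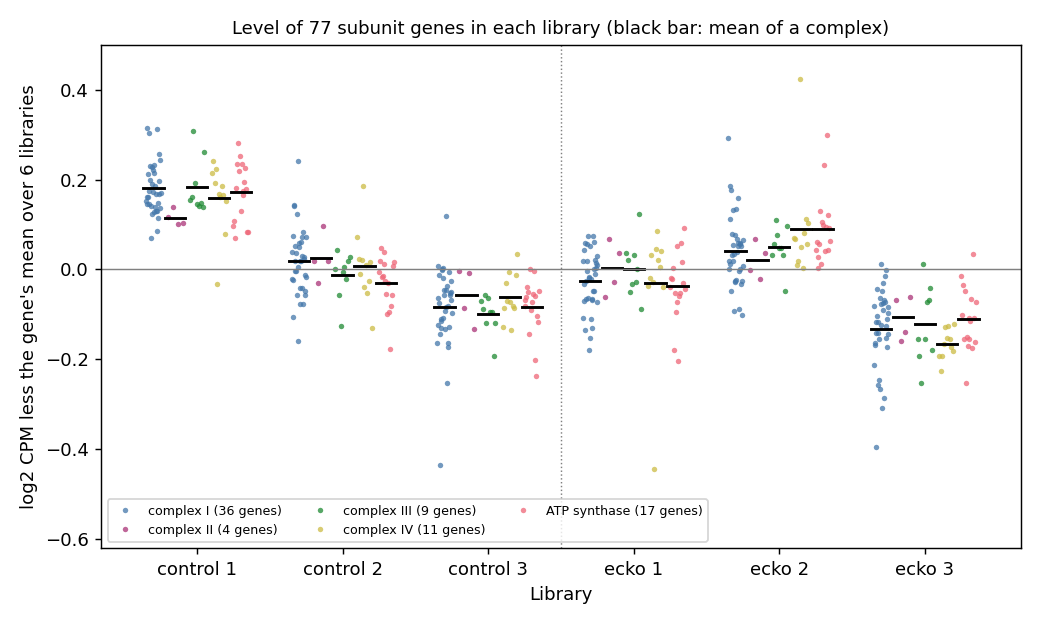
Level of each of the 77 subunit genes in each library (y axis, log2 CPM less the gene's mean over the 6 libraries; points coloured by complex, black bars for the mean of a complex). All 5 groups are highest in the first control library, with means of 0.11 to 0.18, and lowest in the third ecko library, with means of -0.16 to -0.11.

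The median fold change of the members depended on single libraries. Without the first control library the median was 0.0085 and 45 of 77 values were above 0. Without the third ecko library it was -0.0062, with 32 above 0. Without the third control or the second ecko library it was -0.10 in each case, and with the male libraries alone -0.065. The count of calls was 0 of 77 in each direction under all of these. The 69 values below 0 are thus not separate observations, since the genes share the same 6 libraries.

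Other gene groups had part of the same library pattern. The 78 genes of the mitochondrial ribosome, which translates the subunits encoded in mitochondrial DNA, were at 0.12, 0.0056 and -0.042 in controls and -0.0015, 0.025 and -0.11 in ecko, with a median log2 fold change of -0.055. edgeR, DESeq2 and limma-voom called 0 of them, and 6 of 78 passed an unadjusted p under 0.05 in edgeR. Of all genes tested, 15.4% did, a larger share. The 82 genes of the cytosolic ribosome were at 0.12, -0.053 and -0.064 in controls and 0.070, 0.017 and -0.090 in ecko. Unlike for the members, their median log2 fold change was 0.0038, with 44 values above 0 and 38 below. edgeR and limma-voom called 0 of the 82, and DESeq2 called 1 lower, against 244 of 14866 genes tested. For both ribosome groups, the first control library was the highest and the third ecko library the lowest, as for the members. The first ecko library was above the gene means for the cytosolic ribosome, but not for the mitochondrial ribosome or the members.

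Markers of skeletal muscle, a tissue rich in mitochondria, differed between libraries as well. The 17 markers were at 0.52, 0.12 and -0.038 in controls and -0.17, -0.13 and -0.30 in ecko, and their summed level was 8766 to 12879 CPM in controls and 7230 to 8286 CPM in ecko. Of them, 2 were called lower by edgeR (Ryr1 and Tcap), against 1.08% of all genes tested, and 6 by DESeq2, against 244 of 14866. For 13, all ecko libraries were below all controls, against 10.8% of all genes tested. The median log2 fold change was -0.45. Values were below 0 for 15 of the 17, among them the fast-fibre genes Myh4 (-0.74), Pvalb (-0.76) and Actn3 (-0.61), which did not pass in edgeR. They were above 0 for 2, Myh7 (0.23) and Myh2 (0.066), the myosins of slow and of fast oxidative fibres, which did not pass either; these 5 were picked after their values were seen. None of the 17 was at 0 in any library, and the first control library was the highest in summed level. The muscle forms Cox6a2, Cox7a1 and Cox8b were at 0.32, 0.019 and -0.21 in controls and -0.13, 0.25 and -0.24 in ecko, so the second ecko library was high for these where it was not for the muscle markers. Macrophage markers were at -0.56 in the first control library, with summed levels of 390 to 629 CPM in controls and 632 to 648 CPM in ecko. Summed fat cell markers were 639 to 719 CPM in controls and 431 to 531 CPM in ecko. Of the 9, 3 were called lower by edgeR, against 1.08% of all genes tested. Log2 fold changes were below 0 for 8 and above 0 for 1. The latter, Lep (0.88), did not pass in edgeR and was picked after its value was seen. The brown fat gene Ucp1 was under 1 CPM in each library. The part of these cell types in the levels of the subunit genes was not tested.

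The subunit transcripts are short. Their median length was 742 bases over 4 exons, against 2906 bases and 9 exons for all genes tested, and 50 of 77 were under 1 kb (range 315 to 3479 bases). In a comparison chosen after the data were seen, the 50 members under 1 kb were at 0.19, -0.0012 and -0.088 in controls and -0.033, 0.071 and -0.14 in ecko. The 382 other genes under 1 kb with a mean of at least 20 CPM were at 0.051, -0.0041 and -0.031 in controls and 0.044, 0.032 and -0.091 in ecko. The 3074 others of 4 kb or more were at -0.040, -0.012 and 0.010 in controls and -0.00040, 0.00088 and 0.042 in ecko, the reverse order for the first control and the third ecko library. Among the members themselves the 6 genes of 2 to 4 kb still had 0.12 in the first control and -0.076 in the third ecko library. The median log2 fold change was -0.078 for members under 1 kb and -0.036 for the other genes of that length. At 1 to 2 kb it was -0.045 for members and -0.024 for others, and at 2 to 4 kb -0.048 and 0.0045. For others of 4 kb or more it was 0.033. What length or RNA quality adds to the members' levels was not tested.

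**Figure D3:**
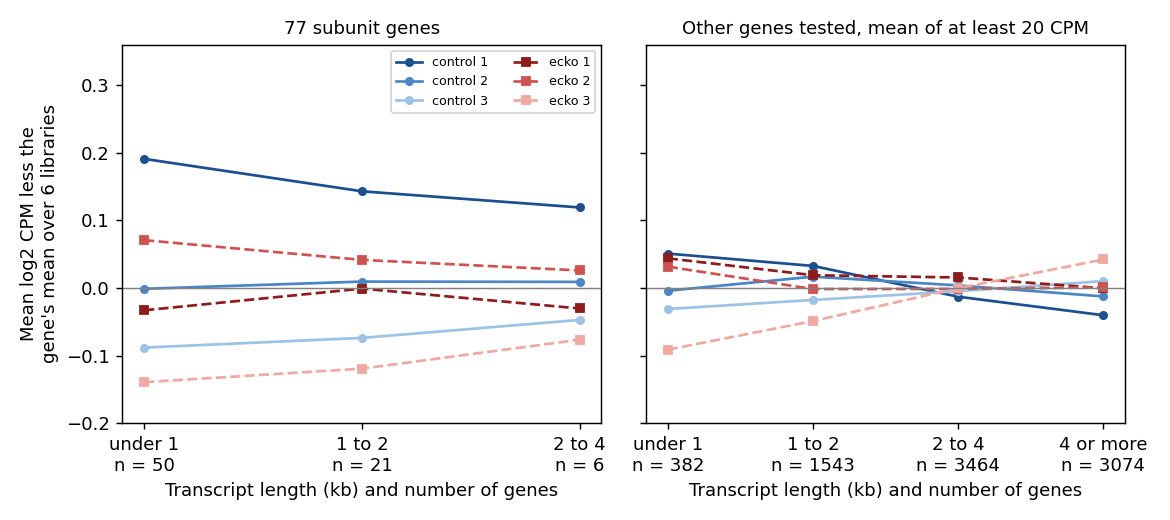
Mean level by library (y axis, log2 CPM less each gene's mean over 6 libraries) against transcript length in kb (x axis, with the number of genes), for the 77 subunit genes (left) and other genes with a mean of at least 20 CPM (right); blue circles are controls and red squares ecko. The first control library is at 0.19 for members under 1 kb and at 0.051 for other genes of that length.

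Around their starts some members held motifs of factors known to drive genes of mitochondria, with NRF1 or ETS letters in 22 of the 65 searched. RefSeq promoter windows (250 bases before to 50 after the start, GRCm38.p6) were at hand for 65 of 77 members and 11764 genes tested. Both strands were searched, a promoter counting once per motif, and none of the motifs is contained in another. The NRF1 core GCGCATGC was in 10 members (15.4%, against 5.31% of all genes tested with a window). The ETS motif CCGGAAG, bound by GABPA, was in 17 (26.2% against 17.8%), and both it and NRF1 were in 5 (7.69% against 1.21%). The YY1 motif AAGATGG was in 11 (16.9% against 7.73%) and the ERRA motif AAGGTCA in 8 (12.3% against 4.04%). The SP1 motif GGGCGG was in 27 (41.5% against 64.8%), the CRE TGACGT in 9 (13.8% against 12.0%) and the TATA motif TATAAA in 6 (9.23% against 9.64%). A match is a description of letters and not a binding site, and these shares were not tested.

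For each complex 1 promoter is shown, picked after the matches were known so that a reader can see where the NRF1 and ETS letters lie. Each run is the 150 bases before to 30 bases after the RefSeq start on the strand of the gene, 5′ to 3′, with NRF1 and ETS letters on either strand in capitals. Ndufa8, complex I, lies at chr2:36049309-36049488 on the minus strand, Sdhb, complex II, at chr4:140961121-140961300 on the plus strand, Uqcr11, complex III, at chr10:80406792-80406971, Cox8a, complex IV, at chr19:7217587-7217766 and Atp5k, ATP synthase, at chr5:108434370-108434549, the last 3 on the minus strand.
Ndufa8: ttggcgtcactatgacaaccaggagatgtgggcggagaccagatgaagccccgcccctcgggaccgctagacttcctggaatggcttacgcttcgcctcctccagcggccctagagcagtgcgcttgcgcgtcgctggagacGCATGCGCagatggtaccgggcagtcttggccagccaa
Sdhb: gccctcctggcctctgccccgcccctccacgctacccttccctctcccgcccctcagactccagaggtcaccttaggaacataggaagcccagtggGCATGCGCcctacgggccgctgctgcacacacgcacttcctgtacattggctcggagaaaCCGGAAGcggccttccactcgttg
Uqcr11: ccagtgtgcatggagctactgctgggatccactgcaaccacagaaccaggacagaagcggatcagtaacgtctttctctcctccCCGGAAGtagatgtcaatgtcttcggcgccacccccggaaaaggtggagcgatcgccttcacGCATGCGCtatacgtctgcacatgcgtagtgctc
Cox8a: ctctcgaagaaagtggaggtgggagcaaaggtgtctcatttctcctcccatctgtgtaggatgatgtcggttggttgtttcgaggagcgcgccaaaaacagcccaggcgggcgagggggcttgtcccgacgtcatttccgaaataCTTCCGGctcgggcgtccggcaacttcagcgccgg
Atp5k: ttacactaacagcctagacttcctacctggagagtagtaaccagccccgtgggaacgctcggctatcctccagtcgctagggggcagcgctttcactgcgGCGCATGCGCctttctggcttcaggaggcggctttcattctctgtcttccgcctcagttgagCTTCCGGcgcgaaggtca
Ndufa8 holds the NRF1 letters alone and Cox8a the ETS letters alone, whereas Sdhb, Uqcr11 and Atp5k hold both. In Atp5k the NRF1 letters are read on both strands over 10 bases. The 10 members with NRF1 letters had a median log2 fold change of -0.082 and the 55 without -0.052, and the 17 with ETS letters -0.052 against -0.055 for the 48 without.

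Some members lie head to head with a gene on the opposite strand. A start of a protein-coding gene on the other strand within 1000 bases, pointing away, was annotated in GENCODE M21 for 18 of 77 members (23.4%). Of the genes tested with a known transcript length, 1308 of 14610 (8.95%) had such a start. The distance was 10 to 336 bases; Ndufa7 starts 10 bases from Rps28, a cytosolic ribosome gene, and Sdhd 98 bases from Timm8b, a mitochondrial import factor. These pairs were picked after the distances were seen. Members lay on 19 chromosomes, with at most 6 on any of them.

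A list of 6 related genes outside the symbol rule held Cox4i1, Cox4i2, Ndufa4l2, Cox7a2l, Cycs and Atpif1, not all of them structural subunits. Of these, 1 was called higher (0.686% over all genes tested) and 0 lower (1.08%). Ndufa4l2, a relative of Ndufa4 known as a target of the hypoxia factor HIF-1, had 27.8, 33.3 and 28.2 CPM in controls and 52.8, 71.0 and 52.3 CPM in ecko, with all ecko libraries above all controls. Its log2 fold change was 0.98 ± 0.12 (SE), a 1.97-fold higher level, with an adjusted p of 0.00618 in edgeR. As a share of the Ndufa4 pair per kilobase, Ndufa4l2 made up 9.27, 13.0 and 10.1% in controls and 18.2, 21.3 and 18.8% in ecko (10.8% ± 1.93 and 19.4% ± 1.62, SD, n = 3). The exact two-sided permutation p was 0.1, the smallest that 3 against 3 allows, and 0.5 after adjustment over 5 isoform pairs. Ndufa4 itself had overlapping groups, as given with complex IV.

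In the other isoform pairs the groups overlapped. Cox4i2, the subunit 4 isoform known to be induced by low oxygen in lung and other tissues, had 8.02, 6.83 and 3.74 CPM in controls and 4.75, 4.43 and 3.86 CPM in ecko (log2 fold change -0.51 with an SE of 0.25, adjusted p 0.364 in edgeR). Without the third control library, its lowest control, it was called lower with an adjusted p of 0.0357 in edgeR. That library was the control closest to the ecko values, so this call is not separate evidence of a decrease. Cox4i1 had 400.0, 342 and 347 CPM in controls and 359, 369 and 323 CPM in ecko (log2 fold change -0.052 with an SE of 0.081), and Cox4i2 was 1.70% ± 0.530 of the pair in controls and 1.25% ± 0.0727 in ecko (SD, n = 3; exact permutation p = 0.4). Cox6a2 made up 30.3% of its pair in controls and 30.5% in ecko, Cox7a1 16.1 and 15.4%, and Cox8b 16.6% in both. Cox6a2, the muscle form of subunit 6a, had 57.4, 51.2 and 37.5 CPM in controls and 44.3, 50.6 and 41.6 CPM in ecko and a log2 fold change of -0.098 ± 0.14 (SE). Cox7a1 and Cox8b had log2 fold changes of -0.097 with an SE of 0.19 and -0.052 with an SE of 0.17, all with overlapping groups.

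**Figure D4:**
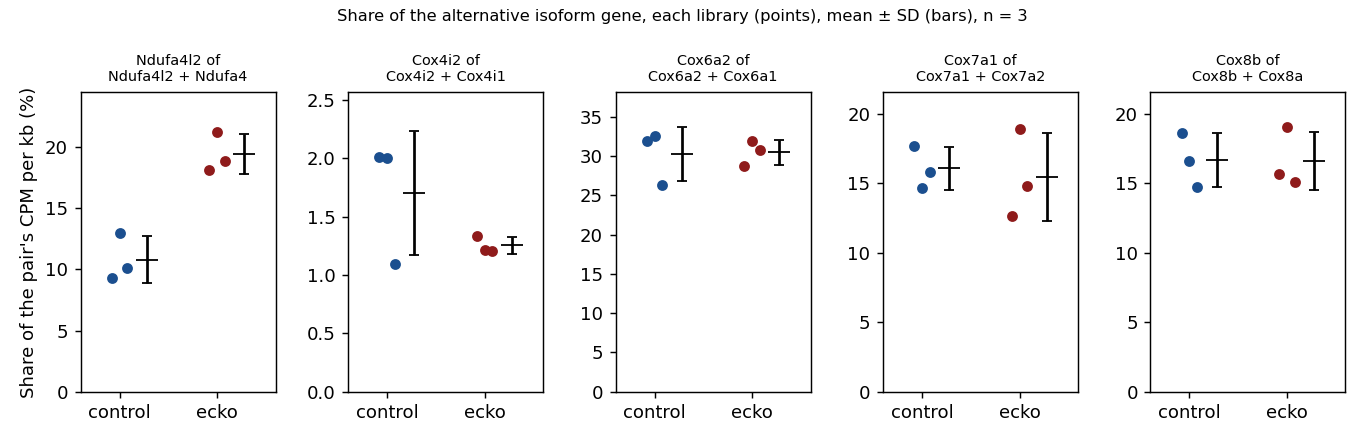
Share of the alternative isoform gene in the level of its pair (y axis, % of the pair's CPM per kb, from 0) in each control (blue) and ecko (red) library, with bars for the mean ± SD of 3 libraries; the panels have different scales. The Ndufa4l2 panel is the one in which the groups do not overlap, at 9.27 to 13.0% against 18.2 to 21.3%.

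Genes that serve the same pathway were read in the same fit. None of 50 assembly factors passed (0 higher, 0 lower, median -0.040), nor did any of 14 tricarboxylic acid cycle genes (median -0.058), 12 genes of pyruvate entry (median -0.030) or 6 carriers of nucleotides, phosphate and the outer membrane (median -0.061). DESeq2 and limma-voom called 0 in these lists too. At an unadjusted p under 0.05 in edgeR, 1 assembly factor (Taco1), 0 cycle genes, 4 of 12 genes of pyruvate entry (Pdk1, Pdk2, Mpc2 and Pdp2) and 0 carriers passed, against 15.4% of all genes tested; these 5 names were picked after their values were seen. Of the 15 transcriptional regulators of mitochondrial genes, edgeR, DESeq2 and limma-voom called 0, with a median of 0.052 and 0 at an unadjusted p under 0.05. Ppargc1a, the coactivator of mitochondrial biogenesis, had 7.27, 6.37 and 5.67 CPM in controls and 6.78, 6.09 and 8.55 CPM in ecko (log2 fold change 0.15 with an SE of 0.16), with overlapping groups.

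A list of 10 genes linked to mitochondria and hypoxia, with Mxi1, which encodes a nuclear antagonist of MYC, among them, held 2 genes called higher (over all genes tested, 0.686% were) and 0 called lower (1.08%). In 5 of the 10 all ecko libraries were above all controls (10.2% over all genes tested). The 5 were Ndufa4l2, Bnip3, Pdk1, Mxi1 and Fam162a, the last 3 picked after their values were seen. The genes called were Ndufa4l2, given above, and Bnip3, a receptor for the removal of mitochondria by autophagy. Bnip3 had 80.5, 95.8 and 75.1 CPM in controls and 129, 141 and 126 CPM in ecko, a log2 fold change of 0.66 ± 0.090 (SE) with an adjusted p of 0.00907 in edgeR. All ecko libraries were above all controls, and without the second ecko library its adjusted p was 0.0549. The median of the 10 was 0.17 against -0.0018 over all genes tested. Values were above 0 for 7 of the 10 and below 0 for 3. Those below 0 were Cox4i2 (-0.51), Lonp1 (-0.041) and Iscu (-0.037), the last 2 picked after their values were seen. These lists were set with earlier results of the same libraries known, so their counts are a description.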

How the data were processed

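Poly(A) RNA of ear skin was captured with oligo(dT), copied from random primers and sequenced from circular libraries, per the labels' protocols, which name no strand step. The authors deposited expected counts (estimated reads per gene, unscaled), of which 10.5% were not whole. Per the submitters' processing notes the build was GRCm38.p6 and the tools were RSEM 1.3.1, Bowtie2 2.4.5 and HISAT2 2.2.1, with no roles stated. The sources used here do not give the annotation used for counting.

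Values were rounded to whole numbers. Genes were filtered with filterByExpr (minimum count 10; 14866 of 18422 kept), scaled by TMM and tested with edgeR 4.0.16's quasi-likelihood test in R 4.3.3 (3 control against 3 ecko libraries, no covariate), with Benjamini-Hochberg adjustment over all genes tested and a threshold of 0.05. Levels in log2 CPM used a prior count of 2. The biological coefficient of variation was 8.8%. Alternatives were DESeq2 1.42.0, limma-voom (limma 3.58.1), other scalings and filters, unrounded counts, a replicate block, a sex term, male libraries alone and each library left out. The test was also run on simulated counts, with an outcome not given here. Those counts were drawn for each gene separately, without shifts shared by genes of a library, so they do not cover such shifts. Coordinates and promoters came from RefSeq (GRCm38.p6). Transcript lengths, exon counts and the starts used for head-to-head genes came from GENCODE M21.

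Members and gene lists were chosen with earlier results of these data known. Genes named were those passing the test, the 5 highest and 5 lowest fold changes and the 5 highest levels per length. Also named were a fixed set of subunit and isoform genes, the called genes of pathway lists (at most 3 a list) and Kdr. Others are named as part of a whole list or said to have been picked after their values were seen. Between replicates of a group, the squared difference of a gene over its sampling variance had a median of 0.996 to 2.05 and a mean of 4.90 to 14.8 (sampling noise alone gives a median of 0.455), and no pair was counted as a duplicate. The values of 1 member are not reported here by name, and it stays in the counts and medians. Depth was 17255419 to 18054700 counts per library.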

Additional observations from a re-analysis of the deposited data

How the results depend on the processing

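The count of respiratory chain genes called was 0 higher and 0 lower in the main test and under all alternatives run, including an adjusted p under 0.1. Over all genes tested, 102 higher and 160 lower became 197 and 244 with DESeq2, 182 and 269 at an adjusted p under 0.1, 63 and 129 with the replicate number as a block (replicate block), and 83 and 91 with the male libraries alone. With each library left out in turn, the counts were 22 to 165 higher, lowest without ecko replicate 2 and highest without control replicate 3, and 34 to 242 lower, with the same libraries at the ends. The cause was not tested. The members' median log2 fold change was -0.071 to -0.050 under the other scalings, tests, filters, block, sex term and male libraries; with upper-quartile factors, at -0.071, the median of all genes was -0.018. It was -0.10 to 0.0085 with each library left out, and above 0 without control replicate 1. Under the replicate block no call of a member changed. Deviations of same-numbered libraries correlated at 0.053, 0.048 and 0.17, and control replicate 2 correlated best with ecko replicate 1. The value of 0.17 is that of replicate 3, the female library of each group. These correlations cannot decide whether the numbers pair the samples, and the main test did not treat them as pairs. Of 608 values of 38 named genes under 16 alternatives, 560 kept their direction and side of the threshold; 23 genes, none called and none above 0.15 in size, changed sign somewhere, and Kdr and Ndufa4l2 passed under all 16. Depth limited Cox6b2 most, with 19 counts at the least.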

Other observations

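The genes that gate the entry of pyruvate into mitochondria held values on both sides, none of which passed edgeR's adjusted threshold. Pdk1, a kinase that switches off pyruvate dehydrogenase, had 87.3, 74.5 and 77.9 CPM in controls and 90.8, 95.6 and 94.0 CPM in ecko, all ecko libraries being above all controls (log2 fold change 0.23 with an SE of 0.069, adjusted p 0.158 in edgeR). Pdp2, a phosphatase that switches the same enzyme on, had 9.99, 9.28 and 10.1 CPM in controls and 6.78, 8.80 and 6.49 CPM in ecko, all ecko libraries being below all controls (log2 fold change -0.41 with an SE of 0.13, adjusted p 0.184 in edgeR). Pdk2, another of these kinases, also lay lower in every ecko library, with 60.4, 57.8 and 56.8 CPM in controls and 49.4, 54.1 and 52.3 CPM in ecko (log2 fold change -0.17 with an SE of 0.063). Mpc2, a subunit of the mitochondrial pyruvate carrier, had 80.8, 67.7 and 68.8 CPM in controls and 56.4, 68.6 and 60.6 CPM in ecko (log2 fold change -0.23 with an SE of 0.092), the second ecko library overlapping the controls. Pdk4 was the gene of this list with the widest spread among controls, with 118, 168 and 44.1 CPM in controls and 142, 190.1 and 179 CPM in ecko. These genes were picked after their values were seen, and their differences from the subunit genes were not tested.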
